A study of Mus musculus with 24 samples.

Results

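The integrated stress response and the unfolded protein response were followed through 10 genes in the retinas of mice after blast-mediated traumatic brain injury (bTBI). The genes are Atf4, Atf5, Ddit3, Trib3, Chac1, Asns, Sesn2, Ddit4, Hspa5 and Xbp1. They were listed by name as well-known genes of both pathways, and each was found through its Ensembl identifier. The rule held no measured value, but earlier results of these data were known when the genes were chosen. All 10 were measured at each timepoint. They stand among 14922 listed genes in the 1-week retinas and 15920 listed genes in the 5-week retinas, 14455 of them shared.

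The retinas came from adult male C57BL/6J mice. The bTBI mice were anesthetized with ketamine and xylazine and received a blast wave in an enclosed chamber with the eye directly exposed, and the sham mice were handled and anesthetized in the same way without the blast wave. One retina was sequenced from each of 6 bTBI and 6 sham mice at 1 week (8 days in the sample labels) and from each of 6 bTBI and 6 sham mice at 5 weeks, 24 retinas in all, and the question was whether bTBI changed the genes at each time. RNA was purified with one kit at 1 week and with another at 5 weeks, so time and kit cannot be told apart. The labels give the cell type as retinal ganglion cell (RGC), but the study sequenced whole retinas, and all 8 rod photoreceptor markers examined were measured at both times.

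The lowest depth of a retina was 14301989 reads and the highest was 25158638. Depth was recovered from the scaled values and covers the listed genes only, so it is not the sequenced total. The summed level of 12 RGC markers was 1010 to 1641 CPM (counts on a common scale of library size) in bTBI retinas and 1819 to 2169 CPM in sham retinas at 1 week, and 639 to 905 CPM in bTBI retinas and 1089 to 1178 CPM in sham retinas at 5 weeks. In RNA of whole tissue, fewer cells of a type and less RNA per cell cannot be told apart. The 10 microglial markers summed to 234 to 628 CPM in bTBI retinas and 138 to 216 CPM in sham retinas at 1 week. At 1 week, lens genes (12 of 14 measured) added up to 4268 and 8028 CPM in bTBI replicates 5 and 6, while the other bTBI retinas had 46.5 to 467 CPM and sham retinas had 11.1 to 768 CPM. Oligodendrocyte genes (3 of 6 measured, with Mog, Mobp and Mag not listed) added up to 3452 CPM in bTBI replicate 3, while the other bTBI retinas had 72.7 to 206 CPM and sham retinas had 64.9 to 74.4 CPM. Across all genes, 336 passed an adjusted p of 0.005 between bTBI and sham retinas at 1 week (2.25%), and 133 passed at 5 weeks (0.835%).

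The integrated stress response joins several alarms into one. Sensor kinases for misfolded protein in the endoplasmic reticulum (ER), missing amino acids, missing heme or double-stranded RNA all phosphorylate the translation factor eIF2α, which slows most protein synthesis while the mRNA of the transcription factor ATF4 is translated better. ATF4 then switches on genes of amino acid supply, of feedback and, when stress lasts, of cell death, many of them through a C/EBP-ATF response element (CARE). The unfolded protein response shares the kinase PERK with it and adds the sensors IRE1, which splices Xbp1 mRNA, and ATF6, which acts on the ER stress response element (ERSE) of chaperone genes such as Hspa5. The response is best known in the retina from photoreceptors with misfolded opsin and from RGCs whose axons were injured.

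These elements can be read in the promoters of the genes. Windows of 300 bases, 250 before and 50 after each annotated RefSeq start, were taken on GRCm38.p6 and matched for all 10 genes. A CARE, searched as TGATGNAA on both strands, was found in 3 of the 10 genes, Asns, Chac1 and Trib3, and in 3.97% of all 32851 windows. An ERSE, searched on both strands as CCAAT and CCACG with 9 bases of any kind between them, was found in 1 of the 10 genes, Hspa5, and in 0.119% of all windows. The match of Trib3 lay just after its start, from base 15 to base 22 on the minus strand of the gene. A match is a description of the letters and not a measured binding site. The stretches that hold the other matches are shown, each 5′ to 3′ along the gene with the matched element in capitals.
Chac1, chr2:119350992-119351091, plus strand, CARE on the opposite strand: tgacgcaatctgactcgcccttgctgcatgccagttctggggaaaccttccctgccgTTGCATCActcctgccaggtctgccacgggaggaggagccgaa
Asns, chr6:7693210-7693309, minus strand, CARE from base -23 to base -16 before the RefSeq start: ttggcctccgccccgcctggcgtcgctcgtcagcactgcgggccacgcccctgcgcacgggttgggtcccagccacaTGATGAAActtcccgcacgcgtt
Hspa5, chr2:34771990-34772089, plus strand, ERSE from base -65 to base -47 before the RefSeq start: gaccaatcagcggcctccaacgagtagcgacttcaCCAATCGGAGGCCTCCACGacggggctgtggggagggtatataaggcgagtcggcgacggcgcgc
Among the 3 genes with a CARE, the log2 fold change of bTBI over sham retinas was 0.04 for Trib3, 0.14 for Chac1 and -0.16 for Asns at 1 week.

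None of the 10 genes passed an adjusted p of 0.005, the threshold of the study, at 1 week (0 of 10, against 2.25% of all genes) or at 5 weeks (0 of 10, against 0.835% of all genes) in limma's test on log2(CPM + 1). At an unadjusted p under 0.05, 3 of 10 differed at 1 week, Atf5 and Ddit3 with higher and Asns with lower levels in bTBI retinas, where 17.3% of all genes did (8.32% with higher and 8.93% with lower levels). At 5 weeks 1 of 10 differed, Asns with lower levels in bTBI retinas, where 10.9% of all genes did (6.95% with lower and 3.97% with higher levels). At an adjusted p under 0.05, Atf5 passed at 1 week, as did 6.08% of all genes, and Asns passed at 5 weeks, as did 2.05% of all genes. For 0 of the 10 were the groups free of overlap, where 1.59% of all genes had every bTBI retina above and 2.25% every bTBI retina below the sham retinas at 1 week, and 0.239% and 1.75% at 5 weeks. The median log2 fold change of the 10 genes, bTBI over sham, was 0.09 at 1 week and 0.02 at 5 weeks, and that of all genes was -0.0002 at 1 week and 0.0012 at 5 weeks. The p-values of bTBI against sham retinas within a timepoint come from limma. Those called adjusted were adjusted by Benjamini-Hochberg over all genes of the timepoint. They rest on the spread between these retinas, each from 1 mouse.

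**Figure D1:**
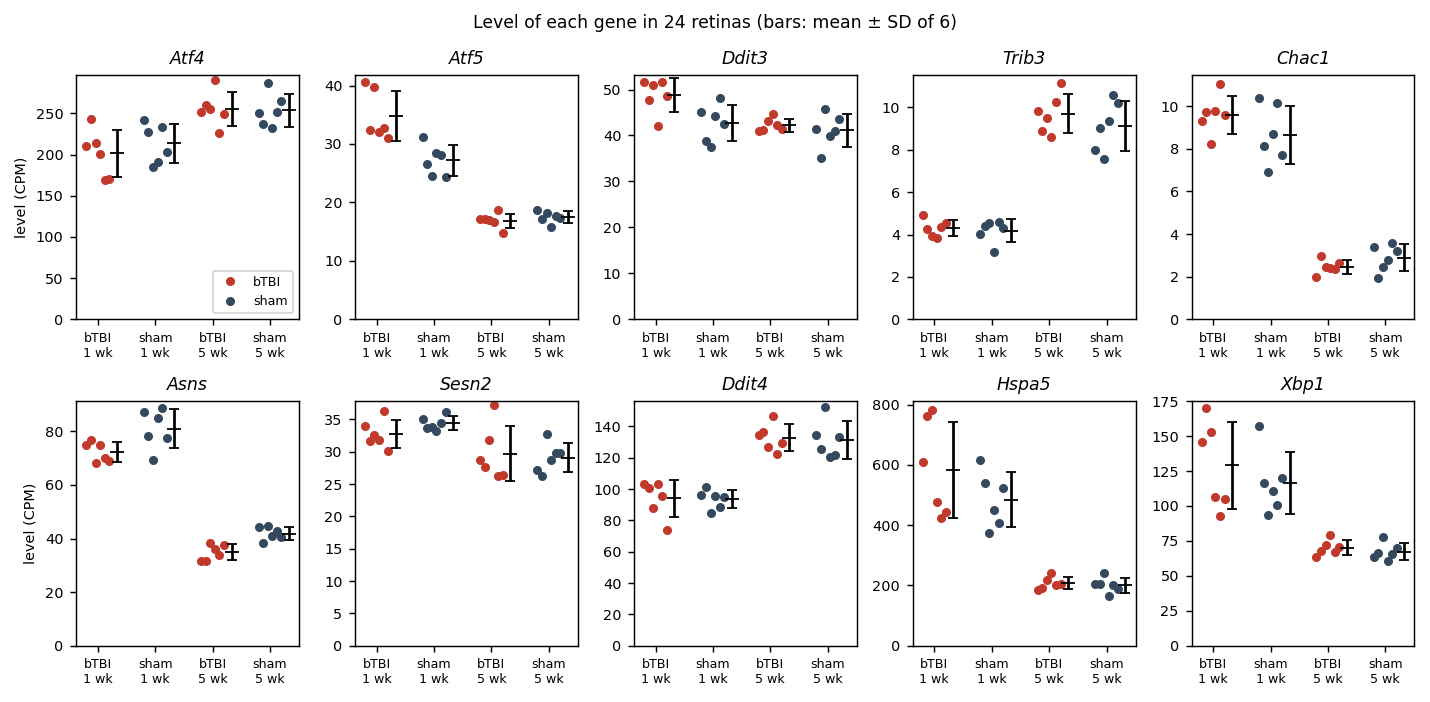
Level of each of the 10 genes in CPM (y axis, from 0) in bTBI and sham retinas at 1 and 5 weeks (x axis). Points are single retinas and bars are the mean ± SD of 6. Groups overlap in every panel at both times, Atf5 at 1 week and Asns at 5 weeks the least, each with 5 of 6 bTBI retinas outside the sham range.

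The transcription factors of the response were Atf4, Atf5 and Ddit3. Atf4 (chr15:80255184-80257541 on GRCm38, plus strand), the common effector of the eIF2α kinases, had 168.9, 205.9 and 243.7 CPM as its lowest, median and highest level in bTBI retinas at 1 week, against 185.3, 215.3 and 241.7 CPM in sham retinas. At 5 weeks the levels were 226.5, 253.3 and 291.1 CPM in bTBI retinas and 231.9, 250.9 and 286.5 CPM in sham retinas. The groups lay over each other at both times. The log2 fold change was -0.09 ± 0.09 (SE, n = 6 each) at 1 week (95% interval -0.28 to 0.10, adjusted p = 0.706, limma) and 0.0096 ± 0.05 at 5 weeks (95% interval -0.10 to 0.12, adjusted p = 0.975, limma). Without the lens-rich bTBI replicates 5 and 6, which held its lowest levels at 1 week (168.9 and 170.1 CPM), the log2 fold change at 1 week was 0.03 (adjusted p = 0.927, limma). ATF4 is set mainly at translation, which levels of mRNA do not measure.

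Atf5 (chr7:44812256-44816658, minus strand), a close relative of Atf4 that is translated in the same way under stress and drives mitochondrial chaperones, came nearest to a difference at 1 week. Its levels were 40.6, 32.3, 39.8, 32.1, 32.7 and 31.1 CPM in bTBI replicates 1 to 6, against 31.2, 26.5, 24.6, 28.5, 28.0 and 24.3 CPM in sham replicates 1 to 6. Of the 6 bTBI retinas, 5 lay above every sham retina, and the lowest bTBI retina lay just under the highest sham retina. The mean was 34.8 ± 4.3 CPM in bTBI retinas and 27.2 ± 2.6 CPM in sham retinas (SD, n = 6 each), a log2 fold change of 0.34 ± 0.08 (SE; 95% interval 0.17 to 0.51, adjusted p = 0.0191, limma). It missed the threshold of 0.005 there and passed it when all 24 retinas shared 1 fit (adjusted p = 0.00158, limma). Over 9 alternative settings the adjusted p was 0.00158 to 0.0313, and with each retina left out in turn it was 0.0113 to 0.0536, the highest without sham replicate 3.

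At 5 weeks Atf5 had 14.9, 17.0 and 18.6 CPM as its lowest, median and highest level in bTBI retinas, against 15.9, 17.4 and 18.8 CPM in sham retinas, a log2 fold change of -0.05 ± 0.06 (SE, n = 6 each; adjusted p = 0.864, limma). The groups overlapped nearly in full. The effect of bTBI at 1 week minus that at 5 weeks was 0.39 ± 0.10 on the log2 scale (95% interval 0.18 to 0.59, adjusted p = 0.0685, limma), the smallest p among the 10 genes, and 0.768% of all genes had an adjusted p under 0.05 in this test. The highest Atf5 levels were in bTBI replicate 1 and in the oligodendrocyte-rich bTBI replicate 3. These retinas also had the highest summed microglial markers of the bTBI retinas at 1 week (434.8 and 628.2 CPM). The part of microglia in the Atf5 values was not tested. Without replicate 3 the log2 fold change at 1 week was 0.30 (adjusted p = 0.0476, limma), and without both lens-rich retinas it was 0.40 (adjusted p = 0.0273, limma). The gene overlaps Nup62 on the opposite strand, and whether reads were counted by strand is not given in the sources used here. Nup62 had -0.03 as its log2 fold change at 1 week (adjusted p = 0.903, limma).

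Ddit3 (chr10:127290774-127296288, plus strand) encodes CHOP, which shifts lasting stress toward cell death. At 1 week its lowest, median and highest levels were 42.1, 49.7 and 51.6 CPM in bTBI retinas, against 37.6, 43.3 and 48.2 CPM in sham retinas, and 4 of 6 bTBI retinas lay above every sham retina. The log2 fold change was 0.19 ± 0.07 (SE, n = 6 each; 95% interval 0.04 to 0.33, unadjusted p = 0.0141, adjusted p = 0.136, limma), so it did not pass. At 5 weeks the levels were 41.0, 41.9 and 44.6 CPM in bTBI retinas and 35.2, 41.2 and 45.7 CPM in sham retinas, with every bTBI retina inside the sham range and a log2 fold change of 0.04 (adjusted p = 0.863, limma). The gene overlaps Mars, a methionyl-tRNA synthetase gene, on the opposite strand, and Mars had -0.03 as its log2 fold change at 1 week (adjusted p = 0.819, limma).

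The targets of ATF4 and CHOP that feed back on stress or follow it were Trib3 and Chac1, both scarce in these retinas. Trib3 (chr2:152337422-152344032, minus strand), a pseudokinase that restrains ATF4 and AKT, had 3.85, 4.30 and 4.91 CPM as its lowest, median and highest level in bTBI retinas at 1 week, against 3.19, 4.37 and 4.60 CPM in sham retinas. Levels at 5 weeks were 8.58, 9.67 and 11.2 CPM in bTBI retinas and 7.57, 9.20 and 10.6 CPM in sham retinas. The groups overlapped at both times, with log2 fold changes of 0.04 ± 0.09 at 1 week (95% interval -0.16 to 0.23, adjusted p = 0.893, limma) and 0.08 ± 0.08 at 5 weeks (95% interval -0.09 to 0.26, adjusted p = 0.82, limma; SE, n = 6 each).

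Chac1 (chr2:119351229-119354381, plus strand) encodes an enzyme that breaks down glutathione and is among the most inducible CHOP and ATF4 targets in cultured cells. Its lowest, median and highest levels at 1 week were 8.23, 9.64 and 11.03 CPM in bTBI retinas, against 6.92, 8.40 and 10.4 CPM in sham retinas. At 5 weeks they were 1.98, 2.44 and 2.99 CPM in bTBI retinas and 1.92, 3.01 and 3.60 CPM in sham retinas. The groups overlapped at both times, and its log2 fold change was 0.14 ± 0.10 at 1 week (95% interval -0.06 to 0.35, adjusted p = 0.527, limma) and -0.15 ± 0.11 at 5 weeks (95% interval -0.39 to 0.08, adjusted p = 0.709, limma; SE, n = 6 each). The difference between these effects was 0.30 ± 0.15 (adjusted p = 0.621, limma).

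Asns (chr6:7675169-7693254, minus strand), asparagine synthetase and the classic target of the amino acid branch through its CARE, had lower levels in bTBI retinas at both times without passing 0.005. At 5 weeks it had 31.5, 31.7, 38.3, 36.3, 33.9 and 37.7 CPM in bTBI replicates 1 to 6, against 44.2, 38.2, 44.6, 40.8, 42.9 and 40.4 CPM in sham replicates 1 to 6. Of the bTBI retinas, 5 of 6 lay below every sham retina, and replicate 3 lay level with the lowest sham retina. The mean was 34.9 ± 3.0 CPM in bTBI retinas and 41.9 ± 2.5 CPM in sham retinas (SD, n = 6 each), 83.4% of the sham level, and its log2 fold change was -0.26 ± 0.06 (SE; 95% interval -0.37 to -0.14, adjusted p = 0.011, limma). Over 8 alternative settings the adjusted p was 0.00517 to 0.0547, and with each retina left out in turn it was 0.00657 to 0.0385.

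At 1 week Asns had 68.0, 72.5 and 76.8 CPM as its lowest, median and highest level in bTBI retinas, against 69.3, 81.7 and 88.5 CPM in sham retinas. The bTBI retinas lay in the lower part of the sham range, 2 of 6 of them below it. The log2 fold change was -0.16 ± 0.06 (SE, n = 6 each; 95% interval -0.29 to -0.03, unadjusted p = 0.0176, adjusted p = 0.157, limma), and the effects at the 2 times differed by 0.10 ± 0.08 (adjusted p = 0.842, limma). Of the 12 RGC markers, 10 fell at 1 week, where 0.985% of all genes fell, and 11 fell at 5 weeks, where 0.823% of all genes fell, in bTBI retinas, with median log2 fold changes of -0.51 at 1 week and -0.66 at 5 weeks, and their part in the Asns values was not tested.

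**Figure D2:**
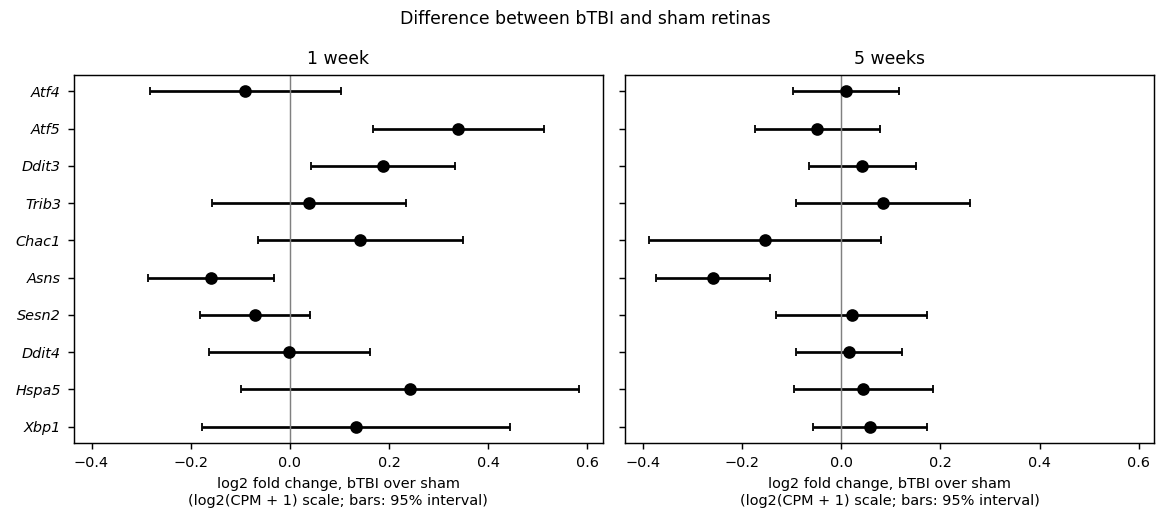
Log2 fold change of each gene, bTBI over sham (x axis, log2(CPM + 1) scale), at 1 week and at 5 weeks. Points are limma estimates and bars are 95% intervals. The intervals of Atf5 (0.17 to 0.51) and Ddit3 (0.04 to 0.33) lie above 0 and that of Asns (-0.29 to -0.03) lies below 0 at 1 week, that of Asns (-0.37 to -0.14) lies below 0 at 5 weeks, and all others include 0.

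Sesn2 and Ddit4 connect the response to growth control, since both restrain mTORC1. Sesn2 (chr4:132492032-132510501, minus strand), a leucine sensor, had 30.1, 32.2 and 36.3 CPM as its lowest, median and highest level in bTBI retinas at 1 week, against 33.3, 34.2 and 36.1 CPM in sham retinas. Levels at 5 weeks were 26.2, 28.2 and 37.3 CPM in bTBI retinas and 26.3, 29.2 and 32.8 CPM in sham retinas. At 1 week 4 of 6 bTBI retinas lay below every sham retina but replicate 5 lay above them all, and the log2 fold change was -0.07 ± 0.05 (95% interval -0.18 to 0.04, adjusted p = 0.57, limma; SE, n = 6 each). It was 0.02 ± 0.07 at 5 weeks (95% interval -0.13 to 0.17, adjusted p = 0.964, limma).

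Ddit4 (chr10:59949669-59951834, minus strand), also called REDD1, had 73.7, 98.0 and 103.5 CPM as its lowest, median and highest level in bTBI retinas at 1 week, against 84.8, 95.3 and 101.4 CPM in sham retinas. The 5-week levels were 122.3, 132.0 and 146.8 CPM in bTBI retinas and 120.3, 129.7 and 152.4 CPM in sham retinas. The groups lay over each other, with log2 fold changes of -0.0011 ± 0.08 at 1 week (95% interval -0.16 to 0.16, adjusted p = 0.999, limma) and 0.02 ± 0.05 at 5 weeks (95% interval -0.09 to 0.12, adjusted p = 0.961, limma; SE, n = 6 each). The sign at 1 week was not fixed, with 0.0017 under median-of-ratios scaling and 0.08 without the lens-rich retinas (adjusted p = 0.653, limma).

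The ER branch was followed through Hspa5 and Xbp1. Hspa5 (chr2:34771970-34777547, plus strand) encodes BiP, the main ER chaperone and a standard gauge of ER stress. At 1 week it had 609.3, 762.9, 781.8, 476.6, 423.7 and 443.3 CPM in bTBI replicates 1 to 6, against 617.4, 538.3, 372.9, 449.6, 405.5 and 523.5 CPM in sham replicates 1 to 6. Only replicates 2 and 3 of the bTBI retinas exceeded the highest sham retina, and the other 4 lay within the sham range. The mean was 582.9 ± 160.5 CPM in bTBI retinas and 484.6 ± 91.7 CPM in sham retinas (SD, n = 6 each), with coefficients of variation of 27.5% and 18.9%, and the log2 fold change was 0.24 ± 0.16 (SE; 95% interval -0.10 to 0.58, adjusted p = 0.505, limma). Without bTBI replicate 2 the log2 fold change was 0.16 (adjusted p = 0.685, limma), without the oligodendrocyte-rich replicate 3 it was 0.15 (adjusted p = 0.778, limma), and without both lens-rich retinas it was 0.43 (adjusted p = 0.157, limma).

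At 5 weeks Hspa5 was more even, with 184.9, 203.1 and 242.0 CPM as its lowest, median and highest level in bTBI retinas and 165.8, 202.7 and 241.9 CPM in sham retinas. The groups lay over each other, with coefficients of variation of 9.78% and 12.4% and a log2 fold change of 0.04 ± 0.07 (SE, n = 6 each; 95% interval -0.10 to 0.19, adjusted p = 0.895, limma).

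Xbp1 (chr11:5520659-5525893, plus strand) encodes the transcription factor that IRE1 activates by splicing, and its gene level does not separate spliced from unspliced mRNA. At 1 week it had 93.0, 126.4 and 169.8 CPM as its lowest, median and highest level in bTBI retinas, against 93.3, 113.7 and 157.0 CPM in sham retinas. Its 5-week levels were 63.6, 69.4 and 79.3 CPM in bTBI retinas and 60.7, 65.9 and 77.8 CPM in sham retinas. The groups overlapped at both times, with log2 fold changes of 0.13 ± 0.15 at 1 week (95% interval -0.18 to 0.44, adjusted p = 0.737, limma) and 0.06 ± 0.06 at 5 weeks (95% interval -0.06 to 0.17, adjusted p = 0.805, limma; SE, n = 6 each). As for Hspa5, its value at 1 week turned on few retinas, at 0.05 without bTBI replicate 2 (adjusted p = 0.913, limma), 0.22 without sham replicate 1 (adjusted p = 0.481, limma) and 0.30 without both lens-rich retinas (adjusted p = 0.303, limma).

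The effect of bTBI at 1 week minus that at 5 weeks passed an adjusted p of 0.005 for 0 of the 10 genes, where 0.104% of all genes passed. Beside Atf5, whose value is given above, only Chac1 had a difference over 0.2 on the log2 scale, and the adjusted p of the 9 genes other than Atf5 was between 0.621 and 0.991.

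Hspa5 and Xbp1 varied together between retinas of the same group, and this was the closest link among the 10 genes. The correlation of their log2(CPM + 1) levels, each minus the mean of its group, was r = 0.942 (permutation p = 1e-05, the smallest that 100000 resamples can give) and rho = 0.925 (permutation p = 1e-05) over 24 retinas. It was 0.931 without the 2 retinas farthest from the median of Hspa5, 0.958 within 1 week and 0.869 within 5 weeks. For the pairs below, the 2 farthest retinas were judged by Atf4 in its pairs, by Ddit3 with Sesn2 and by Chac1 with Asns. Of the 45 pairs of the 10 genes, 5 had an adjusted permutation p of r under 0.05 after Benjamini-Hochberg adjustment over the pairs, and the median r over the 45 pairs was 0.265. No such count or median over pairs of other genes is given here, so these links are not set against general variation between retinas. Lens and oligodendrocyte genes, given above, also differed between retinas. At 1 week 6 pigment epithelium genes summed to 6370, 5813, 4589, 4085, 3811 and 4081 CPM in bTBI replicates 1 to 6. In sham replicates 1 to 6 they summed to 7607, 4725, 5267, 5737, 5604 and 4142 CPM. The part of lens, oligodendrocyte and pigment epithelium genes in these correlations was not tested.

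Atf4 was tied to the same pair, with r = 0.787 and rho = 0.73 to Xbp1 (permutation p = 8e-05 and 0.00069, adjusted 0.0018 and 0.016) and r = 0.757 and rho = 0.709 to Hspa5 (permutation p = 0.0006 and 0.0014, adjusted 0.009 and 0.021). Without the 2 farthest retinas these were 0.69 and 0.666. Atf4 and Ddit4 had r = 0.614 and rho = 0.61 (permutation p = 0.0053 and 0.0039, adjusted 0.048 and 0.035), with 0.493 within 1 week and 0.885 within 5 weeks, and 0.68 without the 2 farthest retinas. Ddit3 and Sesn2 had r = 0.492 and rho = 0.592 (permutation p = 0.0014 and 0.0021, adjusted 0.016 and 0.024), with 0.454 without the 2 farthest retinas, 0.399 within 1 week and 0.647 within 5 weeks.

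The correlations of ATF4 targets with Atf4 mRNA are given one by one, and no difference between correlations was tested. Atf4 and Chac1 had r = 0.164 and rho = 0.182 (permutation p = 0.44 and 0.41, adjusted 0.55 and 0.54). Beside Ddit4, given above, Sesn2 had r = 0.371 and rho = 0.37 with Atf4 (permutation p = 0.054 and 0.073, adjusted 0.19 and 0.25), with 0.62 without the 2 farthest retinas, -0.057 within 1 week and 0.82 within 5 weeks. Atf4 and Asns had r = 0.485 and rho = 0.427 (permutation p = 0.019 and 0.048, adjusted 0.096 and 0.18), with 0.461 without the 2 farthest retinas, and Atf4 and Trib3 had r = -0.171 and rho = -0.223 (permutation p = 0.43 and 0.3, adjusted 0.55 and 0.45). Among the 3 genes with a CARE in the searched window, Chac1 and Asns had r = 0.529 and rho = 0.491 (permutation p = 0.013 and 0.023, adjusted 0.084 and 0.13), and 0.333 without the 2 farthest retinas. Trib3 and Chac1 had r = 0.093 and rho = 0.037 (permutation p = 0.72 and 0.88, adjusted 0.76 and 0.9). Trib3 and Asns had r = -0.183 and rho = -0.15 (permutation p = 0.44 and 0.51, adjusted 0.55 and 0.63).

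**Figure D3:**
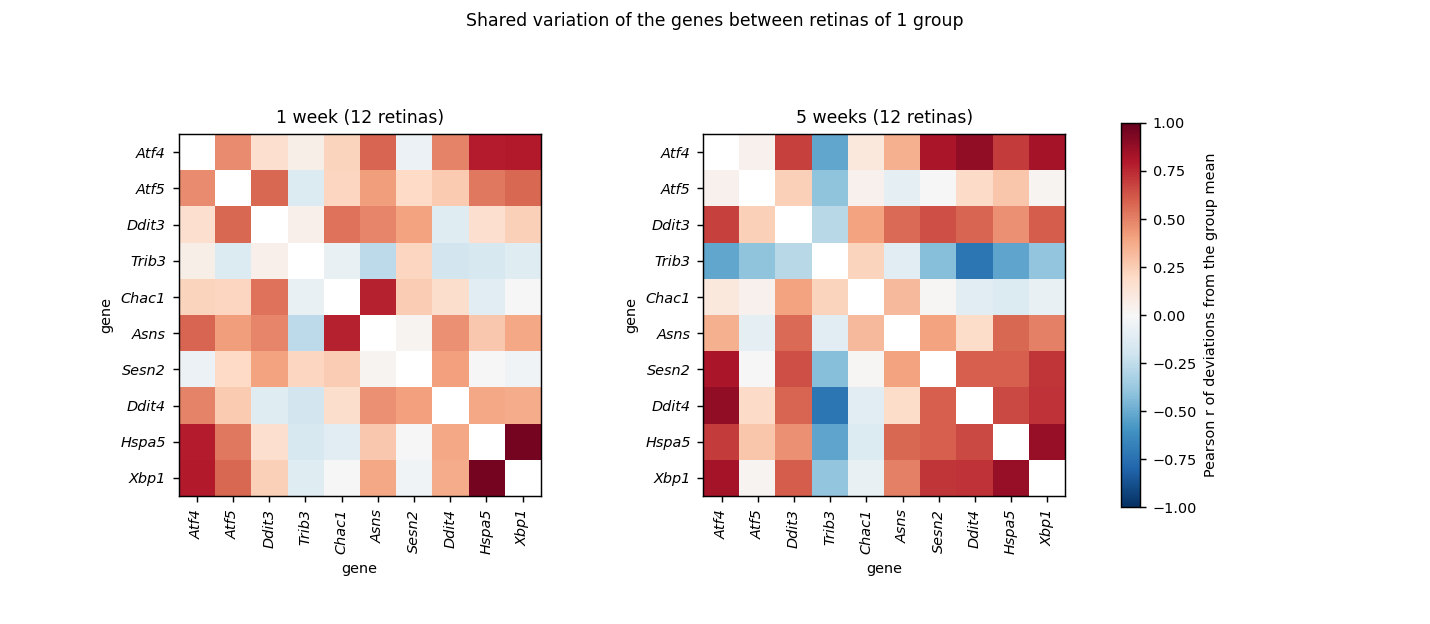
Pearson r of the deviations of log2(CPM + 1) from the group mean for each pair of genes (rows and columns), over the 12 retinas of 1 week and the 12 of 5 weeks. Red is positive and blue negative. Hspa5 with Xbp1 is the darkest pair at 1 week (0.958), and Trib3 with Ddit4 (-0.725) is the lowest at 5 weeks.

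The likeness of Hspa5 took in genes of the cytosol and a part of the other ER genes. Over 11338 genes, those most like it over the 24 retinas were Xbp1 (r = 0.942), St13 (0.934) and Hsph1 (0.924), the last of them partners of HSP70 chaperones in the cytosol. Of 30 other genes of the unfolded protein response, 10 had r over 0.7 with Hspa5, with a median of 0.479, where the median of all genes was 0.022 and 1.36% of them had r over 0.7. At their head stood Manf (0.918), an ER-resident secreted factor, Creld2 (0.892), Calr (0.89), the chaperone calreticulin, Pdia3 (0.857), a disulfide isomerase, and Hyou1 (0.852), a large ER chaperone. Others of the 30 had low or negative r, among them Hsp90b1 (0.438), Canx (0.433), P4hb (0.254), Ero1l (-0.286) and Ern1 (-0.358). The number over 0.7 was 12 within 1 week and 3 within 5 weeks. The share of all genes within each time is not given here, so these counts are not compared. Manf shows the likeness retina by retina, with 56.0, 61.2, 62.3, 42.2, 35.0 and 37.0 CPM in bTBI replicates 1 to 6 at 1 week, against 62.1, 42.8, 33.6, 43.2, 36.4 and 43.6 CPM in sham replicates 1 to 6. As for Hspa5, bTBI replicates 1 to 3 and sham replicate 1 had the highest levels of their groups. The same retinas had the highest summed level of pigment epithelium genes in their groups, and the part of these genes was not tested.

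**Figure D4:**
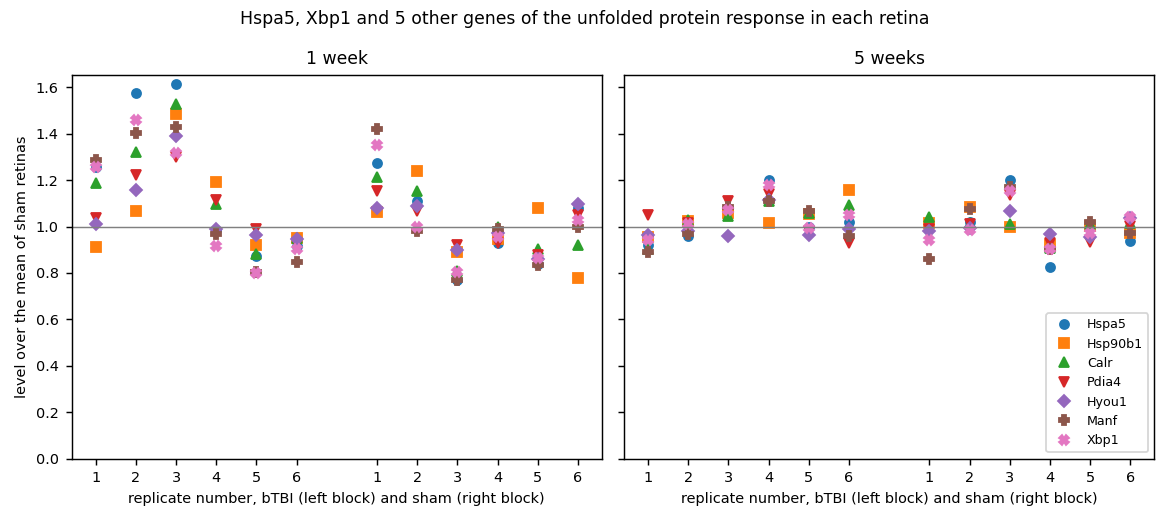
Level of Hspa5, Xbp1 and 5 other genes of the unfolded protein response in each retina, over the mean of the 6 sham retinas of that time (y axis), by replicate number (x axis), bTBI in the left block and sham in the right block. At 1 week bTBI replicates 2 and 3 are high and sham replicate 3 is low for Hspa5 (762.9 and 781.8 against 372.9 CPM), and Manf, Calr and Xbp1 follow it most closely. Hsp90b1 follows it least (r = 0.446 within 1 week). At 5 weeks the spread is narrower.

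The other genes of the pathways were taken from 4 lists. Of 17 kinases and regulators of eIF2, 1 rose at 1 week and 0 at 5 weeks, and 0 fell, where 1.27% of all genes rose and 0.985% fell at 1 week. At 5 weeks 0.0126% of all genes rose and 0.823% fell. The gene that rose was Eif2ak2, which encodes PKR, the kinase for double-stranded RNA and an interferon-stimulated gene. It had 10.6, 15.8 and 20.1 CPM as its lowest, median and highest level in bTBI retinas at 1 week, against 6.85, 7.60 and 7.92 CPM in sham retinas, so that all 6 bTBI retinas lay above all sham retinas, as they did for 1.59% of all genes. The log2 fold change was 0.94 ± 0.11 (SE, n = 6 each; adjusted p = 0.000238, limma) at 1 week and 0.26 ± 0.12 (adjusted p = 0.421, limma) at 5 weeks. Impact, an inhibitor of the amino acid sensor kinase GCN2, had -0.17 as its log2 fold change at 1 week (adjusted p = 0.0918, limma), and Ppp1r15b, which encodes a subunit of the eIF2α phosphatase, had 0.12 at 5 weeks (adjusted p = 0.53, limma). The median over the list was 0.02 at both times.

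Of 38 other ATF4 targets, 35 were measured, with Cebpb, Fgf21 and Gdf15 not listed in either table. At 1 week 1 rose and 0 fell, where 1.27% of all genes rose and 0.985% fell. At 5 weeks 0 passed in either direction, where 0.835% of all genes passed. The gene that rose was Atf3, a transcription factor of the response that is also a marker of injured neurons. It had 11.6, 15.7 and 23.1 CPM as its lowest, median and highest level in bTBI retinas at 1 week, against 4.61, 6.53 and 8.59 CPM in sham retinas. All 6 bTBI retinas lay above all sham retinas, as they did for 1.59% of all genes. The log2 fold change was 1.16 ± 0.16 (SE, n = 6 each; adjusted p = 0.000473, limma) at 1 week and 0.22 ± 0.10 (adjusted p = 0.448, limma) at 5 weeks. Nupr1, a stress-induced chromatin protein, averaged 20.9 ± 7.4 CPM in bTBI retinas and 10.8 ± 2.5 CPM in sham retinas at 1 week (SD, n = 6 each), a log2 fold change of 0.85 that did not pass (adjusted p = 0.0189, limma) and that was 0.63 without the lens-rich retinas (adjusted p = 0.0938, limma).

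The remainder of that list, among them the amino acid transporters, serine synthesis enzymes and tRNA synthetases through which ATF4 rebuilds amino acid supply, had no gene past the threshold. At an unadjusted p under 0.05, 7 of the 35 had higher and 0 had lower levels in bTBI retinas at 1 week (8.32% and 8.93% of all genes), and 2 had higher and 4 had lower levels at 5 weeks (3.97% and 6.95% of all genes). The median log2 fold change of the list was 0.0026 at 1 week and -0.03 at 5 weeks, and 18 of 35 were positive at 1 week and 10 of 35 at 5 weeks. The smallest p at 5 weeks belonged to a pair of tRNA synthetase genes with opposite signs, Cars at -0.15 (adjusted p = 0.153, limma) and Eprs at 0.10 (adjusted p = 0.168, limma).

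Of 30 sensors, chaperones and degradation factors of the unfolded protein response, 0 passed at either time. Of all genes, 2.25% passed at 1 week and 0.835% at 5 weeks. At 1 week 6 of the 30 had an unadjusted p under 0.05, all with higher levels in bTBI retinas (8.32% of all genes had that). At 5 weeks 0 had an unadjusted p under 0.05 (10.9% of all genes in either direction). Of the 30, 26 had a positive log2 fold change at 1 week, with a median of 0.10, as had 7451 of all 14922 genes, and 20 had one at 5 weeks, with a median of 0.02, as had 8052 of all 15920 genes. Genes measured in the same retinas are not independent, and 10 of these 30 had r over 0.7 with Hspa5. The lowest p at 1 week was that of Derl1, a channel protein of ER-associated degradation, with a difference of 0.16 on the log2 scale (adjusted p = 0.0548, limma). Its 6 bTBI retinas (86.2 to 94.9 CPM) all lay above the sham retinas (75.2 to 85.4 CPM). This was so for 1.59% of all genes. Edem1, which marks misfolded glycoproteins for degradation, had 0.25 as its log2 fold change (adjusted p = 0.0715, limma). At 5 weeks the lowest were Pdia3 with 0.07 (adjusted p = 0.549, limma) and Sdf2l1 with 0.16 (adjusted p = 0.604, limma).

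Of 14 partners of mTORC1, the sestrins, the tribbles and Chac1, 0 passed at either time. Of all genes, 2.25% passed at 1 week and 0.835% at 5 weeks. The median log2 fold change of the 14 was -0.04 at 1 week and 0.02 at 5 weeks. At 1 week Trib1, a relative of Trib3, had 0.15 as its log2 fold change (adjusted p = 0.153, limma) and Depdc5, a subunit of an mTORC1 inhibitor, had -0.11 (adjusted p = 0.335, limma). Trib2 had 0.12 (adjusted p = 0.202, limma) and Sesn1 0.05 (adjusted p = 0.618, limma) at 5 weeks. Microglial markers rose beside Eif2ak2 and Atf3 at 1 week, 8 of 10 with a median log2 fold change of 1.13, where 1.27% of all genes rose. Markers of reactive macroglia rose as well, 5 of 8 with a median of 0.94, and summed to 457 to 1658 CPM in bTBI retinas and 285 to 457 CPM in sham retinas. The part of these cells in both genes was not tested.

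Per kilobase of exon, the level of the 10 genes in sham retinas spanned a wide range at both times. At 1 week the order was Hspa5 (114.6 ± 21.7 CPM per kb, SD, n = 6), Atf4 (90.63 ± 10.01), Ddit4 (53.3 ± 3.4), Xbp1 (35.8 ± 6.8), Asns (29.6 ± 2.7), Ddit3 (24.9 ± 2.3), Atf5 (13.6 ± 1.3), Sesn2 (9.90 ± 0.31), Chac1 (5.29 ± 0.84) and Trib3 (1.97 ± 0.25). Xbp1 and Asns differed by less than the SD of Xbp1. At 5 weeks Atf4 led (107.6 ± 8.4), followed by Ddit4 (74.9 ± 6.8) and Hspa5 (47.6 ± 5.9), and Trib3 (4.30 ± 0.56) and Chac1 (1.77 ± 0.39) came last. Atf5 and Sesn2 (8.77 ± 0.50 and 8.37 ± 0.65) lay within 1 SD of each other then.

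The level of several genes in sham retinas differed more between the timepoints than between bTBI and sham retinas. Sham means at 1 week were 2.99 times those at 5 weeks for Chac1, 2.41 times for Hspa5 and 1.94 times for Asns. They were 1.73 times for Xbp1, 1.56 times for Atf5 and 1.18 times for Sesn2. Trib3, Ddit4 and Atf4 had the opposite order, with sham means at 5 weeks that were 2.18, 1.40 and 1.19 times those at 1 week. Ddit3 was nearly level, with a sham mean at 1 week that was 1.04 times that at 5 weeks. The tables of the timepoints were scaled separately, and age, time since anesthesia and RNA kit differ between them, so these ratios are given as a description.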

How the data were processed

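RNA of 24 retinas was sequenced as paired-end reads from stranded polyA libraries. The authors aligned the reads with STAR to the GRCm38 genome, obtained gene counts with featureCounts and compared groups with edgeR at an FDR under 0.005. The deposited signal values are these counts after division by the effective size of each library, on a scale like CPM, without genes of low counts. Raw counts and read totals were not used here, and depth was taken as the sum of a retina's values over their common step, so it covers the listed genes only.

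Values were compared as log2(CPM + 1) with limma 3.58.1 in R 4.3.3 (trend=TRUE, robust=FALSE), two-sided, within each timepoint, with Benjamini-Hochberg adjustment over all its genes and a threshold of 0.005. Fold changes on this scale understate those of scarce genes. The difference between timepoints was tested in 1 fit of 24 retinas over 14455 genes. The fits were tested on simulated data. Symbols and coordinates come from GENCODE on GRCm38, with symbols for 14907 and 15902 genes.

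The 10 genes and the lists were chosen with earlier results of these data known. Of the lists, the text names genes under 0.005 at either time and the 2 with the smallest p per list and time. Likeness is Pearson's r of deviations from group means over genes of at least 5 CPM at each time. Correlation p-values are two-sided, from 100000 permutations within groups. Alternatives changed the scaling, pseudocount, filter, prior, samples, threshold and replicate block.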

Additional observations from a re-analysis of the deposited data

How the results depend on the processing

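No gene of the 10 passed an adjusted p of 0.005 at either time under any alternative, except Atf5 at 1 week in the single fit of 24 retinas (1 of 10). At a threshold of 0.05, 1 of 10 passed at 1 week and 1 of 10 at 5 weeks. The count over all genes at 1 week was 685 in the single fit, 907 at a threshold of 0.05, 112 without both lens-rich bTBI retinas and 189 to 486 with each retina left out, against 336. At 5 weeks it was 56 under a prior without trend, 75 in the single fit, 326 at a threshold of 0.05 and 88 to 163 with each retina left out, against 133. Other pathway genes passing at 1 week numbered 2 to 4 with each retina left out (4 without bTBI replicate 2). Without the lens-rich retinas the log2 fold change at 1 week was 0.0278 for Atf4 and 0.0752 for Ddit4, and under median-of-ratios scaling that of Ddit4 was 0.0017; the causes were not tested. With each retina left out, signs turned for Atf4 (-0.0287 to 0.0452), Ddit3 (-0.00031 to 0.0734), Ddit4 (-0.0134 to 0.0597), Hspa5 (-0.0091 to 0.0994) and Sesn2 (-0.0447 to 0.0552) at 5 weeks, for Ddit4 (-0.0305 to 0.0664) and Trib3 (-0.0206 to 0.0648) at 1 week, and for the difference between timepoints of Ddit4 (-0.0607 to 0.0502), Trib3 (-0.1046 to 0.0018) and Xbp1 (-0.0113 to 0.1644). The replicate numbers did not pair the retinas: same-numbered deviations correlated at -0.253 to 0.541 at 1 week and -0.112 to 0.151 at 5 weeks, and 1 of 6 matched its own number best at each time. With the replicate block, 293 genes passed at 1 week and 134 at 5 weeks, 0 of the 10 among them at either time. The edgeR and DESeq2 alternatives were not run: the values are whole multiples of 1 step in each retina, but they were deposited scaled and were analysed as such. What depth limits was not tested.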

Other observations

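Ddit4 is also a target of glucocorticoid signaling and of the clock, so 10 other genes of that kind were followed, among them Fkbp5, Sgk1, Tsc22d3 and Per1. Their summed level was 740 to 797 CPM in bTBI retinas and 714 to 810 CPM in sham retinas at 1 week, and 867 to 1048 CPM in bTBI retinas and 887 to 1071 CPM in sham retinas at 5 weeks. At both times 0 of 10 passed an adjusted p of 0.005, where 2.25% of all genes passed at 1 week and 0.835% at 5 weeks. At an adjusted p under 0.05 (limma) 1 passed at 1 week and 0 at 5 weeks, where 6.08% and 2.05% of all genes passed. The genes most like Ddit4 between retinas were Plk2 (r = 0.828), Surf6 (0.822) and Edrf1 (0.775). Those most like Atf4 were Slc16a1 (0.896), Cdc37l1 (0.881) and Ncbp2 (0.835), and those most like Asns were Paics (0.767), Phkb (0.761) and Rab39b (0.756), each over 24 retinas and 11338 genes. In the 40 groups of 6 values of the 10 genes, 0 held a retina whose gap to its neighbour exceeded Dixon's critical value.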
